A study of Homo sapiens with 6 samples.

Results

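Kruppel-like factor genes (KLF) were followed in C4-2B-ENZR cells, an established human prostate cancer line resistant to enzalutamide, a hormone therapy drug. The 10 genes described are KLF2, KLF3, KLF4, KLF5, KLF6, KLF7, KLF9, KLF10, KLF11 and KLF13, taken by symbol from a table of 17356 gene rows, and all 10 were listed. They had been selected on their measured values in the contrast described here. RNA-seq libraries were made after transfection of a control siRNA (labelled NC, n = 3) or of one that targets KIF15 (labelled siKIF15, n = 3), a kinesin motor gene of the mitotic spindle that the study's title links to enzalutamide resistance. All libraries came from the same line grown in serum-containing medium. No label gives the siRNA sequences, the time after transfection or whether the 3 libraries of a group were separate cultures, so the spread between them may be technical.

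KLF proteins are transcription factors that bind GC-rich and CACCC-type DNA through zinc fingers at their C-terminal end, as do the related SP factors. Their other ends differ: KLF2, KLF4, KLF5, KLF6 and KLF7 are mostly activators, KLF3, KLF8 and KLF12 recruit the corepressor CtBP, and KLF9, KLF10, KLF11, KLF13, KLF14 and KLF16 recruit SIN3. In epithelia KLF4 is known for cell cycle arrest and differentiation and KLF5 for proliferation, and several members are early responders to growth factors, TGF-beta or steroid hormones.

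The promoter of KLF4, the member with by far the largest difference between the groups, is shown beside that of KLF9, the most strongly expressed member per kilobase in NC, which differed the other way. Both stretches are the 250 bases before the RefSeq transcription start on GRCh38.p14, minus strand, written 5′ to 3′. Capitals mark the GC box GGGCGG and the KLF box CACCC on either strand. The KLF4 stretch (chr9:107489770-107490019) holds 4 GC boxes and has a GC content of 69.2%, and the KLF9 stretch (chr9:70414658-70414907) holds none of either box at 32.4%.
KLF4: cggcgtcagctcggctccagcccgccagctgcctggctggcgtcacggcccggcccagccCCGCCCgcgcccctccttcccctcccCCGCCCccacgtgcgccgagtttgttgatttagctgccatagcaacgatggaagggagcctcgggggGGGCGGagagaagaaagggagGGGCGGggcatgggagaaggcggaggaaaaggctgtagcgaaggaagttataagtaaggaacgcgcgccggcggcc
KLF9: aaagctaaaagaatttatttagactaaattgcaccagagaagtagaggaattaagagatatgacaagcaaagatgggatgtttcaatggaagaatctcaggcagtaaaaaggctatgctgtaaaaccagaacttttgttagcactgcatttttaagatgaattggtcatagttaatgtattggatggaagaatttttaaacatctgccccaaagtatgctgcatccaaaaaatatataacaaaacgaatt

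RefSeq promoter windows, from 250 bases before to 50 bases after a start, were at hand for 8 of the 10 members, KLF3 and KLF10 not being analysed here. Where a gene has several starts, a match in any window counted, and motifs were read on both strands with overlaps between motifs allowed. The GC box lay in 7 of 8 members (not KLF9) against 48.3% of 27305 genes, and the KLF box CACCC in 4 of 8 (KLF5, KLF7, KLF11 and KLF13) against 63.1%. The E-box CACGTG lay in 4 members (KLF4, KLF6, KLF7 and KLF11) against 8.77% of genes. The interferon-stimulated response element lay in none of the 8 members and in 4.38% of genes, and the STAT-type element TTCNNNGAA in KLF7 alone and in 9.38%. A MEF2 box lay in KLF2 and KLF11 (3.38% of genes), the cyclic AMP element TGACGTCA in KLF11 (2.25%) and a CArG box in KLF7 (1.60%). The shares of all genes were not matched for GC content or number of windows. Median GC content over all windows was 58.7%. The windows of KLF2, KLF4, KLF6 and KLF13 stood at 80.7%, 69%, 70.7% and 78.3%, and that of KLF9 at 32.7%. KLF5, KLF7 and KLF11 had several windows, spanning 40.7% to 71.3%, 42.7% to 70% and 75.3% to 77.3%. The matches describe letters in the windows and locate no bound factor.

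Values are the deposited signal per gene, of unknown sequencing depth. Log2 change stands for the siKIF15 mean of log2(value + 1) less the NC mean, from limma fitted over the 16548 genes whose mean reached 1 in either group; a gene was called at a Benjamini-Hochberg adjusted p under 0.05. The target itself was not called: KIF15 stood at 366.4, 403.6 and 319 with NC, and the libraries labelled siKIF15 gave 294.8, 333.1 and 363 (limma adjusted p = 0.57), so every direction is that of the libraries labelled siKIF15. The prostate luminal markers KLK3, KRT8 and KRT18 were listed well above the floor. PTPRC of leukocytes and PECAM1 of endothelium stayed below 10 in every library, but some others on those lists did not. Leukocyte markers, mostly CD14, NKG7 and ITGAM, gave sums of 47.1 to 69.3 (NC) and 49.9 to 75.9 (siKIF15). Endothelial sums, mostly VWF with ESAM next, were 388.2 to 437.3 (NC) and 446.8 to 507.6 (siKIF15), without overlap. VWF itself overlapped, with 309.7, 333 and 329.8 for NC against 395.2, 355.1 and 315.8 for siKIF15 (limma adjusted p = 0.57). No marker of these 2 lists was called. Summed basal markers, mostly KRT14, lay at 2.2 to 20.4 (NC) and 36.3 to 64.5 (siKIF15). Fibroblast sums, mostly COL1A1 and PDGFRB, were 492.3 to 529.8 (NC) and 463.3 to 514.7 (siKIF15). KRT14, PDGFRA and FAP were called higher from low NC means of 9.9, 0.8 and 0.8, reaching 46.1, 5.9 and 6.6 (limma adjusted p = 0.0052, 0.042 and 0.03). The KRT14 call was lost without siKIF15 1 (adjusted p = 0.086), and those of PDGFRA and FAP without any of NC 1, NC 3, siKIF15 1 and siKIF15 2 (adjusted p 0.076 to 0.13), that of PDGFRA also without siKIF15 3 (adjusted p = 0.053). Their part in any result was not tested. Within a group, libraries differed by GC content and length of transcripts. Spearman's rho was taken between each of these and the deviation from the group mean, across 13572 genes that are no independent replicates. For GC it was 0.43, 0.42 and -0.62 in siKIF15 1, 2 and 3, and for length 0.03, -0.52 and 0.43.

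KLF4 was the member that stood apart, while most of the family differed little. KLF4 rose 7.74-fold, KLF5 fell by 26.2%, KLF9 fell by 18.6%, and the other 7 were not called. The members had been chosen with this contrast known, so their values are a description. Over all tested genes 18% were called (9.66% higher, 8.33% lower), beside 3 of the 10 members, and nothing is read from that count. The members' median log2 change was 0.05, against 0 for all tested genes.

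**Figure D1:**
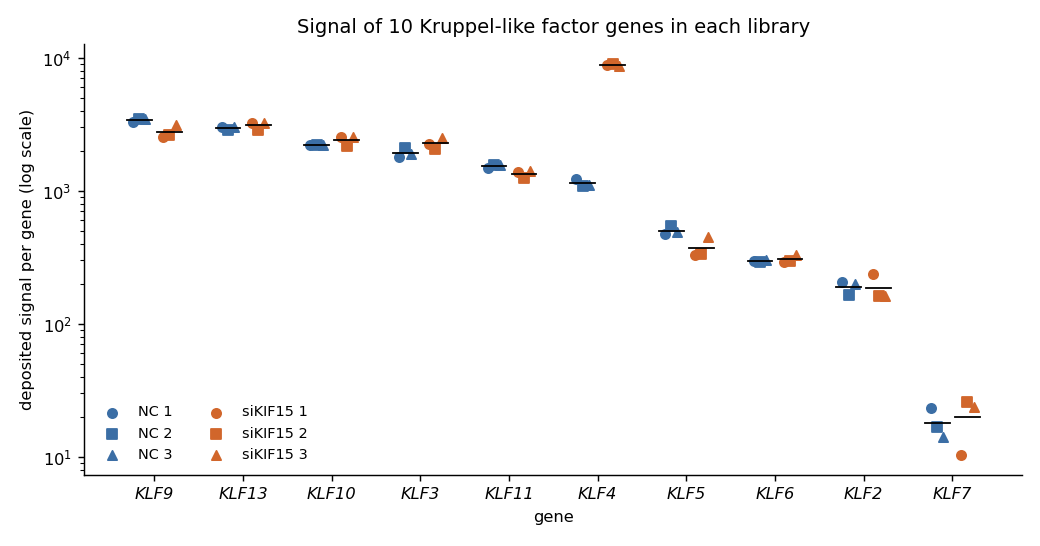
Deposited signal (log scale) of the 10 genes, ordered by their NC mean, with 1 point per library (blue NC, orange siKIF15) and a black line at each group mean. KLF4 lies between 1087.7 and 1230.4 in NC and between 8673.3 and 9035.1 in siKIF15, while the other 9 genes keep their order of magnitude.

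Among the activators, KLF4 was measured at 1230.4, 1087.7 and 1101.9 in NC 1, 2 and 3 and at 8758.1, 9035.1 and 8673.3 in siKIF15 1, 2 and 3. The groups were far apart and each was tight, with means of 1140 ± 78.6 and 8822.2 ± 189.2 (SD, n = 3). The log2 change was 2.95 ± 0.07 (SE; 95% interval 2.80 to 3.11), and it ranged from 2.92 to 3.01 when single libraries were left out. It ranked 52nd by rise among the 11384 tested genes whose mean reached 100. In bulk RNA, more cells that express a gene and more RNA per cell cannot be told apart.

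KLF5, a growth-promoting factor of epithelial progenitors, was measured at 474.4, 542.4 and 487.9 in the NC libraries against 328.8, 334.4 and 447.4 under siKIF15. The groups did not overlap, but siKIF15 3 lay close to the NC libraries and apart from siKIF15 1 and 2. The log2 change was -0.45 ± 0.14 (SE), and it was -0.59 without siKIF15 3. It did not pass the test when any of NC 1, NC 2, NC 3, siKIF15 1 and siKIF15 2 was omitted, with log2 changes of -0.49, -0.39, -0.47, -0.37 and -0.38.

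KLF2, a factor of quiescent endothelium and lymphocytes, was measured at 208, 164.2 and 200 in the NC libraries against 236.4, 163.1 and 162.1 under siKIF15. The ranges overlapped (log2 change -0.04, 95% interval -0.44 to 0.36). KLF6, a widely expressed injury-response factor, lay at 297.2, 292.5 and 301.3 in the NC libraries against 292.4, 295.6 and 326.9 under siKIF15, with siKIF15 3 the highest. Its interval ran from -0.24 to 0.32, and its sign flipped with libraries scaled to equal totals. KLF7, known from neurons and fat, was near the lower end of the values at 23.4, 16.8 and 14.1 in the NC libraries against 10.3, 26 and 23.7 under siKIF15, and its interval, -0.82 to 0.95, allows changes of nearly 1 log2 unit either way.

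KLF3, the CtBP-recruiting repressor among the members, was measured at 1790.3, 2079.1 and 1878.9 in the NC libraries against 2233.5, 2057.5 and 2507.8 under siKIF15. The ranges overlapped through NC 2 and siKIF15 2, and the log2 change of 0.24 ± 0.09 (SE) was not called. It was called without siKIF15 2 (log2 change 0.31) and after the correction for GC content and transcript length, where the log2 change was 0.37 and the 3 siKIF15 libraries stood 0.39, 0.33 and 0.37 above the NC mean. KLF3 had the lowest transcript GC content of the members, 41.5%.

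Among the SIN3-recruiting members, KLF9, a steroid- and thyroid hormone-responsive repressor, fell. It was measured at 3266.2, 3482.3 and 3446.2 in the NC libraries against 2554.4, 2639 and 3107.2 under siKIF15. No siKIF15 library reached the NC range, and siKIF15 3 again lay nearest to it. The log2 change was -0.30 ± 0.08 (SE), and -0.39 without siKIF15 3. The call ended without NC 1, NC 2, NC 3 or siKIF15 1, where the log2 change was -0.33, -0.28, -0.29 and -0.25.

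KLF11, a TGF-beta-inducible repressor, lay at 1479.7, 1567.4 and 1572.9 in the NC libraries against 1382.7, 1255.4 and 1397.8 under siKIF15. Every siKIF15 library was below every NC library, though the log2 change of -0.20 ± 0.08 (SE) was not called. It was called without siKIF15 3 (-0.22) and after the GC and length correction (-0.19). KLF10, the other TGF-beta-inducible member, lay at 2221.3, 2189.5 and 2219.1 in the NC libraries against 2538.2, 2171.3 and 2522.3 under siKIF15. The NC values lay close together, with siKIF15 2 just below them and siKIF15 1 and 3 above (log2 change 0.12, 95% interval -0.05 to 0.29). KLF13, known as a regulator of the chemokine gene CCL5 in T cells, lay at 2995.1, 2841.1 and 2991.4 in the NC libraries against 3220, 2859.4 and 3238.3 under siKIF15, with overlapping ranges and an interval of -0.08 to 0.24. KLF4, KLF5, KLF9 and KLF11 were thus the 4 members whose groups did not overlap, beside 34.8% of all tested genes (18.3% higher, 16.5% lower), and nothing is read from that count.

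**Figure D2:**
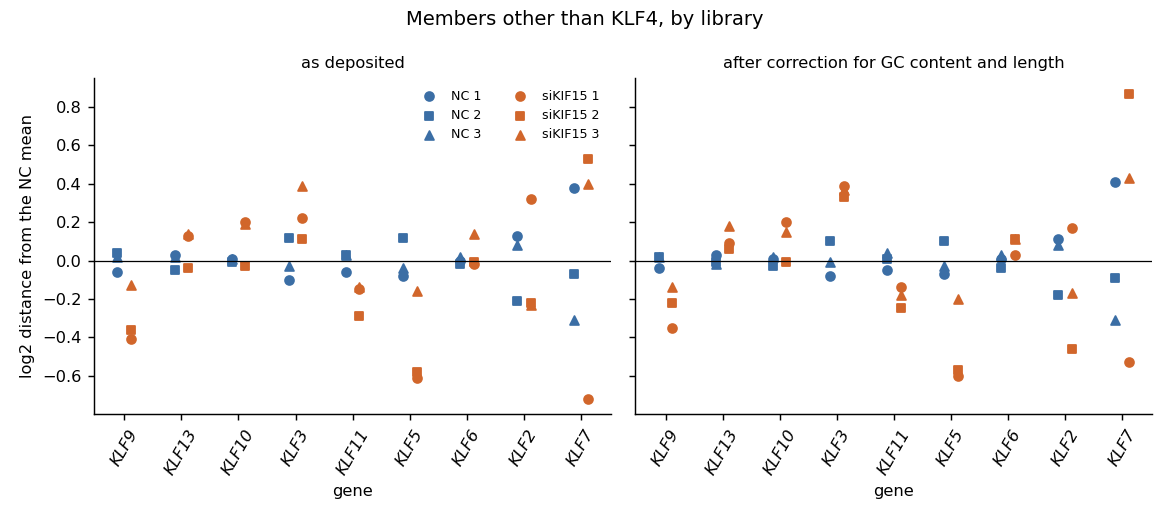
Log2 distance of each library from the NC mean for the 9 members other than KLF4, as deposited (left) and after correction for transcript GC content and length (right), with blue NC and orange siKIF15 points. In siKIF15 1, 2 and 3 KLF5 stands at -0.61, -0.58 and -0.16 before and -0.60, -0.57 and -0.20 after, and KLF3 at 0.22, 0.11 and 0.39 before and 0.39, 0.33 and 0.37 after.

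The correction drew the 3 siKIF15 values of KLF3 together, but not those of KLF5. KLF9 stood at -0.41, -0.36 and -0.13 from its NC mean in siKIF15 1, 2 and 3 before it and at -0.35, -0.22 and -0.14 after it. KLF4 changed from 2.94, 2.99 and 2.93 to 2.82, 2.85 and 2.90. After the correction 5 members were called (KLF3, KLF4, KLF5, KLF9 and KLF11), beside 27% of all genes in that fit. Without siKIF15 3, KLF4, KLF5, KLF9 and KLF11 were called, beside 30.6% of genes.

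Per kilobase of each gene's longest protein-coding transcript in GENCODE 29, the levels in NC were led by KLF9 (656.7 ± 22.4 SD, n = 3) and KLF10 (604 ± 4.85). KLF13, KLF4, KLF11 and KLF3 followed at 431.1, 405.3, 381.9 and 374.1, and in that order the ranges over libraries of neighbours overlapped. KLF5, KLF2, KLF6 and KLF7 came last at 140.7, 94.5, 63.8 and 2.17, with no overlap between neighbours. In siKIF15 KLF4 was first at 3136.2 ± 67.3, ahead of KLF10 at 658.8 ± 56.7 and KLF9 at 534.7 ± 57.5. Which isoforms were counted is not given in the sources used here, so this order holds for the lengths used.

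**Figure D3:**
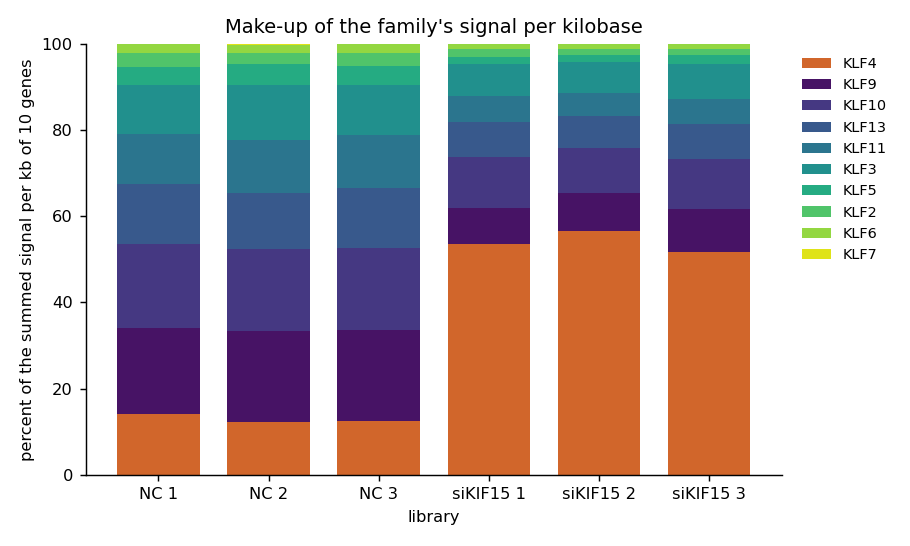
Stacked bars give each member's percent of the 10 genes' summed signal per kilobase in every library, with KLF4 in orange at the base. KLF4 makes up 14%, 12.2% and 12.4% in NC 1, 2 and 3 and 53.5%, 56.5% and 51.7% in siKIF15 1, 2 and 3.

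The summed signal per kilobase of the 10 genes was 3133.6 to 3167.1 in NC and 5688.4 to 5962.6 in siKIF15. Without KLF4 the sum overlapped between the groups, at 2696.2 to 2780.5 in NC and 2476.5 to 2879.3 in siKIF15. The ratio of KLF4 to KLF5 per kilobase, which does not depend on how a library was scaled, was 3.29, 2.54 and 2.86 in NC 1, 2 and 3 and 33.8, 34.3 and 24.6 in siKIF15 1, 2 and 3. The ratio of KLF10 to KLF11, the TGF-beta-inducible pair, was 1.65, 1.54 and 1.55 in the NC libraries against 2.02, 1.91 and 1.99 under siKIF15. That of KLF9 to KLF13 was 1.44, 1.62 and 1.52 in the NC libraries against 1.05, 1.22 and 1.27 under siKIF15. These 3 pairs were picked after their values were seen and are a description.

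Among relatives outside the 10, 2 SP genes rose and 1 KLF gene fell. Over all tested genes 9.66% were called higher and 8.33% lower, and nothing is read from that count. SP6, also called epiprofin and known from tooth and skin epithelium, was measured at 2614.8, 2620.3 and 2728.9 in the NC libraries against 9401.8, 9394.3 and 8389.7 under siKIF15. It rose 3.41-fold, with a log2 change of 1.77 ± 0.07 (SE; limma adjusted p = 4.3e-11), and ranked 104th by rise among the same genes. SP8, a limb and forebrain factor, was low at 68, 75.6 and 82.5 in the NC libraries against 188.8, 116.2 and 148.6 under siKIF15. It rose 2.01-fold (limma adjusted p = 0.0062), but did not pass when siKIF15 1 was omitted (adjusted p = 0.073) or with a single prior variance (adjusted p = 0.053). KLF15, a metabolic and glucocorticoid-responsive factor, was measured at 2417.6, 2539.9 and 2332.7 in the NC libraries against 1864.4, 1747.1 and 1629.1 under siKIF15. It fell 1.39-fold, by 0.48 on the log2 scale (limma adjusted p = 0.00069), without overlap between the groups, and the calls of SP6 and KLF15 were kept without any single library.

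**Figure D4:**
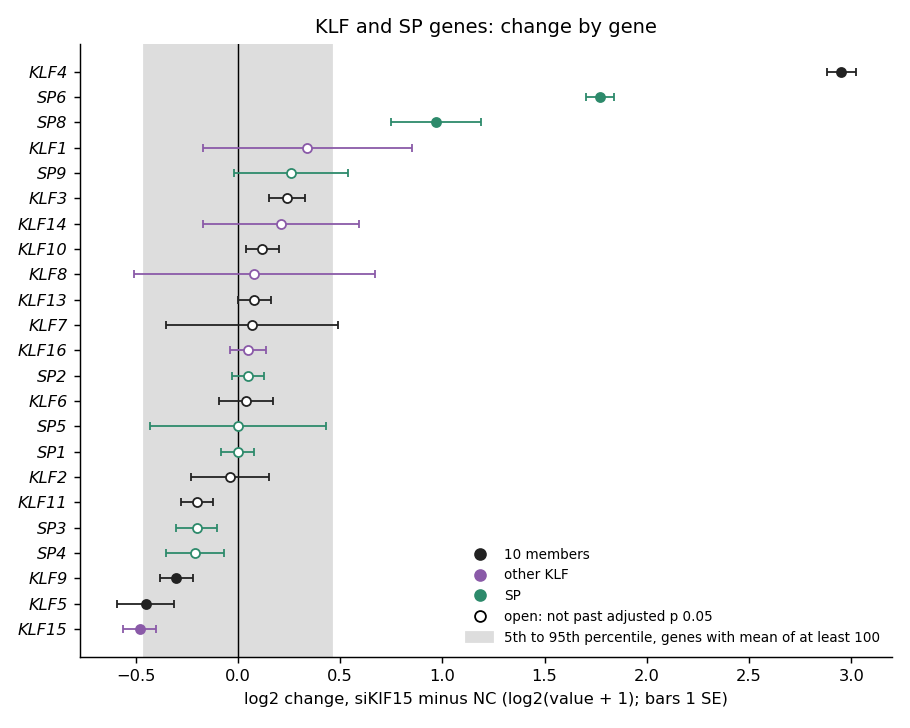
Log2 change (siKIF15 minus NC, bars 1 SE) of the KLF and SP genes whose mean reached 10 in either group; filled points passed an adjusted p of 0.05, and colours separate the 10 members, other KLF genes and SP genes. The grey band is the 5th to 95th percentile of genes whose mean reached 100, -0.46 to 0.46: KLF4, SP6 and SP8 lie to its right, KLF15 at -0.48 just to its left, and KLF5 at -0.45 just inside.

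Of the 7 other KLF genes listed, KLF15 alone was called, beside 18% of all tested genes. KLF16, a SIN3-recruiting factor, averaged 2933 in NC and 3049.6 in siKIF15, a direction that flipped with libraries scaled to equal totals. KLF1, KLF8 and KLF14 had means of 11.3 to 20.1, and KLF12 and KLF18 lay near or at 0. Of the 9 SP genes SP6 and SP8 were called, beside the same 18%. SP1, the abundant general factor, stood at 4842.9, 4910.7 and 5002 in the NC libraries against 4958.5, 4341.4 and 5527.5 under siKIF15, overlapping ranges with a change of 0 (95% interval -0.18 to 0.18); after the GC and length correction it was called at 0.17 (adjusted p = 0.0075). SP3 stood at 3568.8, 3703.9 and 3468.8 in the NC libraries against 2778.8, 2876.2 and 3752.8 under siKIF15, where siKIF15 3 was above every NC library. SP3 and SP4 were not called (adjusted p = 0.17 and 0.33). Without siKIF15 3 both had a log2 change of -0.34 (adjusted p = 0.00081 and 0.05). Correcting for GC and length brought them to 0 and -0.02. SP2, SP5, SP7 and SP9 were not called.

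Signals that feed into the family were described from lists chosen with earlier results of these data known, and each count of calls stands beside 9.66% of all tested genes higher and 8.33% lower. With a single prior variance only PGR, IVL, CDKN1A, CCND1 and FGFBP1 of the 22 called list genes passed. In the MAP kinase and MEF2 arm that drives KLF2 and KLF4 in endothelium, 1 of 8 genes fell and none rose, with a median log2 change of -0.11. That gene was MEF2A, at 1407.8 ± 61.9 in NC and 1127.5 ± 180.3 in siKIF15 (limma adjusted p = 0.044). Its call held only without siKIF15 3 among the 6 fits with a library left out (adjusted p 0.12 to 0.18 in the others) and was lost after the GC and length correction (log2 change -0.17, adjusted p = 0.073) and with a pseudocount of 0.1 (adjusted p = 0.059). MAPK7, the kinase ERK5, averaged 1200.2 in NC and 1217.6 in siKIF15.

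Among 14 TGF-beta and SMAD genes, 3 fell and 1 rose (median -0.22), beside 18% of all tested genes called in either direction. The receptor gene TGFBR1 fell 1.35-fold (limma adjusted p = 0.02), SMAD2 1.2-fold and SMAD4 1.19-fold, while SMAD7, an inhibitor of the pathway, rose 1.28-fold from 995.9 ± 64.7 to 1276.7 ± 148.7 (adjusted p = 0.024). SMAD7 lay at 933.8, 1062.9 and 991.1 in the NC libraries against 1256.3, 1434.5 and 1139.1 under siKIF15, without overlap. The 4 calls ended without NC 1, NC 2, NC 3 or siKIF15 1 (adjusted p 0.062 to 0.19), and those of TGFBR1, SMAD4 and SMAD7 also without siKIF15 2 (adjusted p = 0.075, 0.15 and 0.091). With GC and length corrected, SMAD2 and SMAD4 were at 0.10 and -0.02 and no longer called, and TGFBR1 was at -0.24 against -0.45. SMAD2 had the longest transcript of the genes on these lists, 34526 bases, so its corrected value rests on the long end of the length fit. With equal library totals SMAD7 was not called (adjusted p = 0.057), nor was SMAD4 with a pseudocount of 0.1 (adjusted p = 0.057).

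Of 4 FOXO genes, FOXO3 fell 1.33-fold from 4936.7 ± 145.7 to 3718.4 ± 419.2 (limma adjusted p = 0.0026), a call kept without any single library. With GC and length corrected FOXO3 was at -0.31 against -0.41. Of 11 steroid and thyroid hormone receptor and target genes, 3 fell and 1 rose (median -0.04), beside 18% of all tested genes called. PGR, the progesterone receptor gene, stood at 290.1, 338.3 and 280.3 in the NC libraries against 134.5, 110.8 and 127.9 under siKIF15, a 2.43-fold fall (limma adjusted p = 5.6e-05). PER1, a clock gene induced by glucocorticoids, fell 1.44-fold (adjusted p = 0.00086), and both calls were kept without any single library. THRB, a thyroid hormone receptor gene, fell 1.27-fold (adjusted p = 0.02), and NR3C1, the glucocorticoid receptor gene, was called higher at low values, 4.9, 6.6 and 13.4 in the NC libraries against 25.2, 20.9 and 19.6 under siKIF15. The THRB call ended without each library but siKIF15 3 (adjusted p 0.064 to 0.11), and that of NR3C1 when NC 1, NC 2 or either of siKIF15 1 and siKIF15 2 was omitted (adjusted p 0.084 to 0.16). With GC and length corrected PGR was at -0.98 against -1.28, PER1 at -0.57 against -0.53 and THRB at -0.18 against -0.36. Without siKIF15 2 THRB was at -0.24. NR3C1 was not called with a pseudocount of 0.1 or quantile scaling (adjusted p = 0.058 and 0.064).

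Among 11 cofactors, HDAC1, a histone deacetylase of the SIN3 complex, rose 1.26-fold from 13943.1 ± 588.1 to 17511.3 ± 853.3 (limma adjusted p = 0.0035), and none fell. HDAC2, another deacetylase on the list, averaged 3683.7 in NC and 3464.5 in siKIF15 and was not called (adjusted p = 0.47). SIN3A, SIN3B, CTBP1 and CTBP2 were not called (adjusted p = 0.22, 0.36, 0.6 and 0.17). Of 9 listed genes for KLF protein turnover 2 fell. WWP1, a ubiquitin ligase of KLF5, stood at 2819.4, 2727.7 and 2614.1 in the NC libraries against 1784.8, 1745.2 and 2253.9 under siKIF15. It fell 1.41-fold (limma adjusted p = 0.0017), with siKIF15 3 nearest to NC, and the WWP1 and HDAC1 calls were kept without any single library. With GC and length corrected WWP1 was at -0.37 against -0.51 and HDAC1 at 0.26 against 0.33. USP10, a deubiquitinase, fell 1.16-fold (adjusted p = 0.044), a call that held only without siKIF15 3 among the fits with a library left out (adjusted p 0.079 to 0.19 in the others) and was lost with the replicate number as a block (adjusted p = 0.072).

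Genes named as epithelial targets of KLF4 gave 3 rises and 1 fall among the 8 of 13 that were listed and tested (median 0.33), beside 9.66% of all tested genes higher and 8.33% lower; the list was chosen with earlier results known. IVL, the cornified envelope protein involucrin, stood at 45, 30 and 29.3 in the NC libraries against 95.9, 74.3 and 97.9 under siKIF15, 2.57-fold higher (limma adjusted p = 0.0025). CDKN1A, the cell cycle inhibitor p21, rose 1.79-fold (adjusted p = 1e-06), and LAMA3, a laminin chain, fell 1.36-fold (adjusted p = 0.0017). These 3 calls were kept without any single library. With GC and length corrected IVL was at 1.23 against 1.36, CDKN1A at 0.72 against 0.84 and LAMA3 at -0.3 against -0.45. CDH1, the E-cadherin gene, rose 1.18-fold (adjusted p = 0.039), a call that ended without NC 1, NC 2, NC 3 or siKIF15 1 (adjusted p 0.11 to 0.17) and with equal library totals or quantile scaling (log2 change 0.17 and 0.12, adjusted p = 0.1 and 0.22). KRT19 and SPRR1A were not called (adjusted p = 0.093 and 0.54).

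Of 11 proliferation genes linked to KLF5 or KLF4, 3 fell and 1 rose (median -0.01), beside 18% of all tested genes called. CCND1, cyclin D1, stood at 26358.6, 27421.8 and 26511.7 in the NC libraries against 17707.9, 17076.2 and 17915.9 under siKIF15, a 1.52-fold fall (limma adjusted p = 7.8e-06). FGFBP1, a carrier of fibroblast growth factors, was at 0, 0 and 1.9 in the NC libraries against 13.9, 30.2 and 26.8 under siKIF15 (adjusted p = 0.00028), so no fold is given. Both calls were kept without any single library. EGFR fell 1.42-fold (adjusted p = 0.013) and FASN 1.2-fold (adjusted p = 0.03). The EGFR call ended without NC 2, NC 3 or siKIF15 1 (adjusted p = 0.1, 0.063 and 0.053), and that of FASN held only without siKIF15 3 (adjusted p 0.052 to 0.14 in the others). EGFR stood at 9525.2, 5809 and 9478.7 under siKIF15, with siKIF15 2 the lowest; without it the log2 change was -0.31 against -0.54, and with a robust prior the call was lost (adjusted p = 0.12). With GC and length corrected EGFR was at -0.37 against -0.54 and FASN at -0.17 against -0.27. CCNB1, CDK1 and BIRC5 were not called (adjusted p = 0.9, 0.95 and 0.27). Of 6 tested vascular and lymphoid targets of KLF2, ASS1 of arginine synthesis rose 1.29-fold (adjusted p = 0.0018; log2 change 0.37, and 0.24 with GC and length corrected), and none fell.

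The patterns most like that of KLF4 were sought among 11379 genes whose mean reached 100, leaving out the member itself and symbols listed more than once, by Euclidean distance of log2 values from the NC mean over the 6 libraries. The nearest were ISG20, APOL3, DHX58 and SECTM1, at distances of 0.221, 0.238, 0.26 and 0.352 log2 units and with log2 changes of 2.92, 2.91, 2.82 and 2.78. For KLF5, the member with the largest fall, UGGT2, NAA30, TTC21B and KANSL1L were nearest, at 0.0591, 0.0651, 0.0754 and 0.0758. With 6 libraries in 2 groups these distances rest mainly on the size of the group difference.

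**Figure D5:**
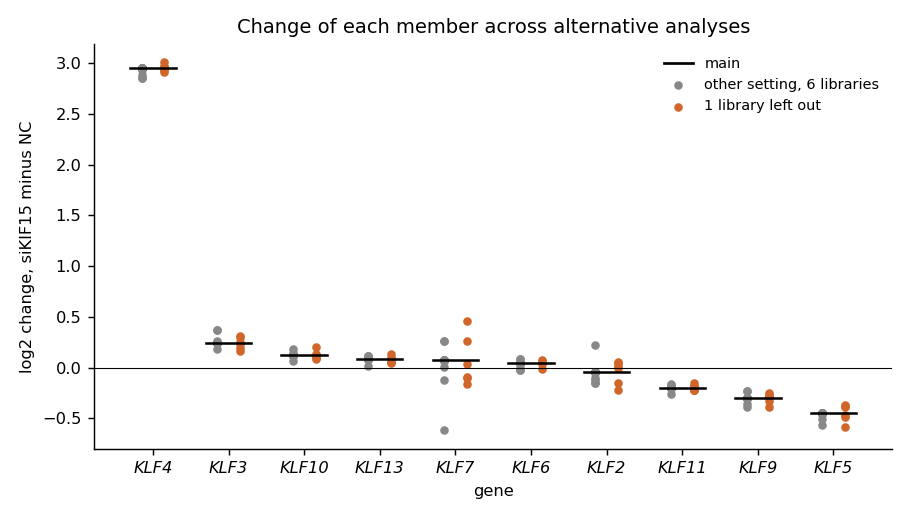
Log2 change of each member in the main analysis (black line), under 13 other settings with all 6 libraries (grey) and with 1 library left out (orange). KLF4 stays between 2.86 and 3.01, KLF5 between -0.59 and -0.37 and KLF9 between -0.39 and -0.23, whereas KLF2, KLF6 and KLF7 have points on both sides of 0.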

How the data were processed

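Per-gene tables of 3 NC and 3 siKIF15 RNA-seq libraries were used. The authors deposited 1 signal value per gene and library, which is not a whole number; library sums ran from 49460840 to 53157388; how it was scaled is not given in the sources used here, so the depth is unknown and these sums are no depths. Bowtie 0.12.2 is named in the submitters' processing notes, as are 2 mouse builds (mm8, mm9); the human build and annotation are not given in the sources used here. Values were compared as log2(value + 1) with limma 3.58.1 in R 4.3.3 (trended prior, genes whose mean reached 1 in either group, Benjamini-Hochberg adjusted p under 0.05), tested on simulated data first. The correction fitted a robust spline with 5 degrees of freedom on GC content and length of the longest protein-coding GENCODE 29 transcript in each library. Python 3.11.15 with pandas 2.3.3 and matplotlib 3.10.9 made tables and plots. Members and gene lists were chosen with earlier results of these data known. Named were KIF15, every listed KLF and SP gene, the called genes of the signal, cofactor, turnover and target lists, and the 4 nearest patterns of KLF4 and KLF5. A planned naming of up to 4 more genes per list by smallest adjusted p was not carried out. MAPK7, HDAC2, SIN3A, SIN3B, CTBP1, CTBP2, KRT19, SPRR1A, CCNB1, CDK1 and BIRC5 were named for their role after their values were seen, and MAP3K2 for its change of sign. Same-numbered libraries of the groups did not deviate together. Alternatives covered the pseudocount, filter, scaling, variance prior, library weights, GC and length, the replicate number and each library left out.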

Additional observations from a re-analysis of the deposited data

How the results depend on the processing

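Of 19 alternatives, KLF4 was called higher in all, KLF9 lower in 14 and KLF5 in 13. The main analysis gave 1599 genes higher, 1379 lower, 3 members, 3 other KLF and SP genes and 22 genes of the other lists. A single prior variance gave 760, 310, 1 member, 2 other KLF and SP genes and 5 list genes. Library weights, whose fit did not fully converge, gave 3750, 3752, 6 members, 7 other KLF and SP genes and 46 list genes. The GC and length correction gave 2157 lower and 5 members. With a library left out, counts ran from 767 to 2537 higher, 417 to 2540 lower, 1 to 4 members, 2 to 5 other KLF and SP genes and 11 to 33 list genes; the upper ends came without siKIF15 3. Equal library totals led to 1204 calls higher and 1753 lower, 40.7% higher against 53.7%, with the median gene at -0.06, and KLF6, KLF16, SP1 and SP2 then changed sign. SMAD2 was at 0.10 after the GC and length correction, MAP3K2 at 0.19, and CDK1 at -0.14 with library weights; the cause was not tested.

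The replicate number as a block gave 1654 higher and 1530 lower, and with the GC and length correction 2237 and 2205, 5 members, SMAD2 at 0.10 and HDAC2 at 0.20. Same-numbered libraries share only a number: their deviations correlated at 0.05, -0.06 and 0.02 across 13838 genes. The block changed no member's call. The number of members with each motif was the same in windows of only the 250 bases before the start. A count test (edgeR, DESeq2) and a comparison of member proteins were not run, as whole reads could not be recovered and no protein table was used here. The depth behind low values such as those of KLF7 is unknown.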
